A study of Mus musculus with 13 samples.

Results

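miR-223-3p and miR-142-3p are 2 microRNAs (miRNAs) of blood-forming cells, and they were followed here in plasma exosomes of mice with and without sepsis. They are 2 of the 68 probes of a targeted panel and were picked from it by name. The tested condition was CLP, short for cecal ligation and puncture (8 mice): the cecum is tied and pierced, gut bacteria leak into the abdomen and a polymicrobial sepsis follows. The control was a sham operation (5 mice). All 13 mice were male, wild-type and of strain C57BL/6J, and plasma was taken 24 hours after surgery. Each mouse gave 1 sample. The sources used here do not give age, antibiotic treatment, blood cell counts or plasma volume. Exosomes, small vesicles shed by cells into the blood, were collected by ultracentrifugation, so their miRNAs can come from any tissue.

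A miRNA is a short RNA that, loaded into an Argonaute protein, pairs with messenger RNAs through its seed and lowers their translation or stability. miR-223-3p is made mainly by the myeloid lineage. It is abundant in neutrophils, where it restrains granulocyte production and inflammatory activation, and it is also abundant in platelets. miR-142-3p is made by nearly all haematopoietic lineages, is largely absent outside them, and is needed for normal lymphoid and myeloid development. Both are therefore commonly read as blood cell signals in plasma.

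The mature sequences are given first because the seed sets which messages each miRNA can bind. They are the mouse entries of RefSeq on build GRCm38.p6, and capitals mark the seed, bases 2 to 8 from the 5′ end.
miR-223-3p: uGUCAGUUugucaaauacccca
miR-142-3p: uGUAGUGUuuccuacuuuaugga
The first lies at chrX:96242884-96242905 on the plus strand and is 22 bases long. The second, annotated in mouse as miR-142a-3p, lies at chr11:87756903-87756925 on the plus strand and is 23 bases long. A mature mouse sequence was found for 52 of the 68 probe names. None of the other 51 shared the seed of miR-223-3p, and none shared that of miR-142-3p. The longest run of bases that miR-223-3p has in common with another of them was 7 bases, and for miR-142-3p it was 6 bases. The probes carry human miRNA names and their own sequences were not used here.

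The hairpins from which both are cut are shown with the annotated 3p arm, the arm in the probe names, in capitals.
Mir223: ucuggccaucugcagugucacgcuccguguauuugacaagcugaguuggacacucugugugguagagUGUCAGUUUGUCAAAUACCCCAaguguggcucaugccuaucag
Mir142: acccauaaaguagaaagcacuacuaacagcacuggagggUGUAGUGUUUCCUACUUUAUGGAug
Mir223 (chrX:96242817-96242926, plus strand) lies within the span of the long noncoding RNA gene F630028O10Rik, and the nearest protein-coding neighbour at higher coordinates is Vsig4. Mir142 (chr11:87756864-87756927, plus strand) lies 1266 bases from Tspoap1 and overlaps a second miRNA gene, Mir142b, on the opposite strand.
miR-142b: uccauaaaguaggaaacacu
This RNA of the opposite strand is the exact reverse complement of bases 4 to 23 of miR-142-3p. It has no probe on the panel.

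The first comparison asked how much signal of each miRNA was recovered from plasma exosomes, before any scaling between mice. Both miRNAs rose in CLP mice, miR-142-3p 5.25-fold and miR-223-3p 3.56-fold. Nearly the whole panel rose with them. Of the 66 miRNAs tested without scaling, 90.9% rose and none fell, so these rises do not set either miRNA apart. The summed raw signal of the panel ran from 33043 to 74685 units in CLP mice and from 10598 to 45121 units in sham mice. Whether a mouse released more vesicles or packed more of a miRNA into each vesicle cannot be told apart in such bulk samples, nor can the number of source cells and the RNA made per cell. Plasma volume is not given, so differences in the plasma used or the RNA recovered cannot be told apart from these either.

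The raw fluorescence of miR-223-3p was lowest at 2027 units, had a median of 3247 units and was highest at 4167 units among the 8 CLP mice. In sham mice 1 to 5 it was 500.5, 901, 1330.2, 339.5 and 2209 units. Sham mouse 5 was the only sham mouse within the range of the CLP group, and 7 of 8 CLP mice lay above every sham mouse. The exception was CLP mouse 8, the lowest CLP mouse. The log2 difference was 1.83 (SE 0.45), with a limma adjusted p = 0.000785. The group values spread 2.06-fold from lowest to highest in CLP mice and 6.51-fold in sham mice.

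The raw fluorescence of miR-142-3p was far nearer to the low end of the scale. It was lowest at 44.4 units, had a median of 124 units and was highest at 173 units in CLP mice. In sham mice 1 to 5 it was 11.6, 32.2, 18.1, 9.32 and 44.6 units. Again 7 of 8 CLP mice lay above every sham mouse, but here the exception was CLP mouse 4, which was just below sham mouse 5. CLP mouse 7, at 55.9 units, was the next lowest of its group. The log2 difference was 2.39 (SE 0.47), with a limma adjusted p = 0.000143. Signals of different probes are not on one scale, so the lower signal of miR-142-3p does not show that it was the rarer of the pair.

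**Figure D1:**
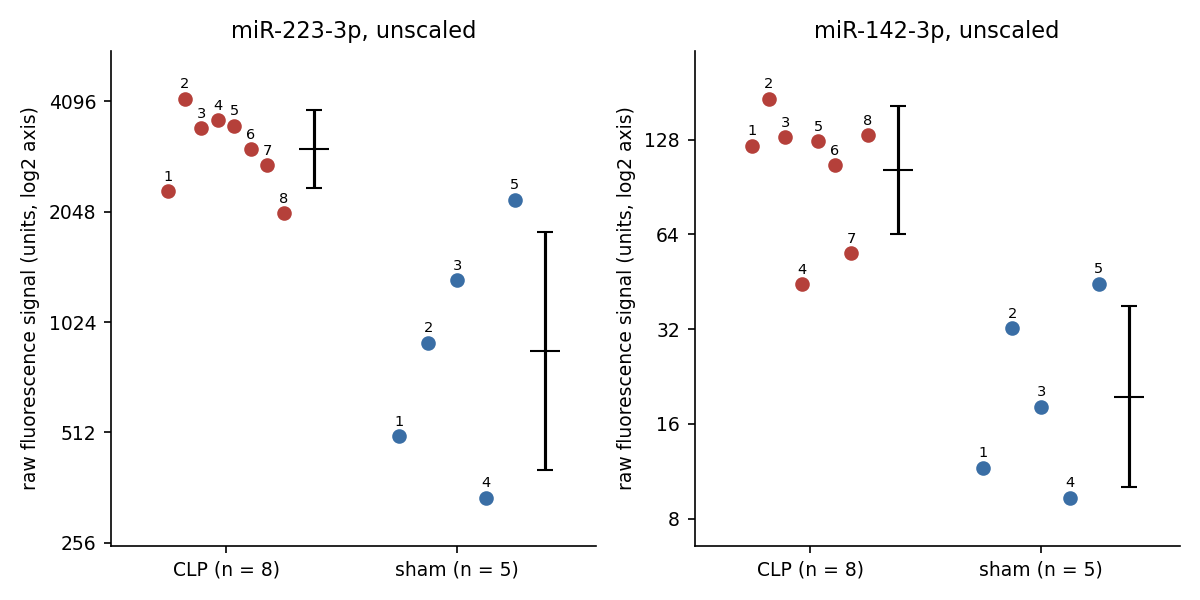
Raw fluorescence signal (units, log2 axis) of miR-223-3p and miR-142-3p in each mouse, CLP (n = 8) left of sham (n = 5), with mouse numbers beside the points and bars for the geometric mean ± 1 SD of log2 values. For each miRNA 7 of 8 CLP mice lie above every sham mouse; the exception is CLP mouse 8 for miR-223-3p and CLP mouse 4 for miR-142-3p.

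For neither miRNA did the groups separate fully, whereas 15.2% of the 66 miRNAs had a raw signal in every CLP mouse above that of every sham mouse. Ranked by their unscaled change, miR-142-3p was 13 and miR-223-3p was 35 of 66, and the median change over the panel was 1.87. miR-223-3p thus changed by nearly the same amount as the median miRNA. Sham mice 1 and 4 had the weakest signal over the panel. Without both of them the differences were 1.79 for miR-142-3p (SE 0.46) and 1.14 for miR-223-3p (SE 0.39), with limma adjusted p = 0.00633 and 0.0212, and 54.5% of the panel rose.

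The second comparison asked whether the pair stood out from the other miRNAs once the overall brightness was set aside. The signals of a mouse were divided by their geometric mean, taken over the 60 miRNAs above 0 in all mice. Neither miRNA passed the test after this scaling, while 10.8% of the 65 miRNAs tested rose and 20% fell. miR-223-3p was at 0.930 of its sham level (log2 -0.11, SE 0.18, 95% interval -0.49 to 0.28, limma adjusted p = 0.699). miR-142-3p was at 1.37-fold of its sham level (log2 0.45, SE 0.40, 95% interval -0.40 to 1.31, limma adjusted p = 0.409). The interval of miR-142-3p is wide enough to hold a rise of over 1 log2 unit.

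After scaling, miR-223-3p was lowest at 1561 units, had a median of 1659 units and was highest at 2801 units in CLP mice. In sham mice 1 to 5 it was 2309, 1953, 2232, 1439 and 1939.5 units. The groups overlapped, and the highest of all 13 mice, CLP mouse 8, was also the CLP mouse with the weakest panel signal. The scaled signal of miR-142-3p was lowest at 19.3 units, had a median of 58.3 units and was highest at 183 units in CLP mice. In sham mice 1 to 5 it was 53.7, 69.9, 30.4, 39.5 and 39.1 units. CLP mouse 8 was again the highest, and CLP mouse 4 lay below every sham mouse.

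After scaling, miR-223-3p was among the steadier miRNAs from mouse to mouse and miR-142-3p among the more variable. The within-group SD of scaled log2 signal, pooled over both groups, was 0.28 for miR-223-3p, which ranked 55 of 65 from the most variable. It was 0.79 for miR-142-3p, which ranked 10, against a panel median of 0.42. Without scaling both were nearer the middle of the panel, with an SD of 0.79 (rank 38 of 66) for miR-142-3p and 0.71 (rank 47) for miR-223-3p, against a panel median of 0.84. By group, without scaling, the SD was lower in CLP than in sham mice, 0.68 against 0.96 for miR-142-3p and 0.35 against 1.08 for miR-223-3p. After scaling, the SD of miR-142-3p was instead higher in CLP mice, at 0.92 against 0.46 in sham mice. That of miR-223-3p was then 0.29 in CLP mice and 0.27 in sham mice. Which group was more variable for miR-142-3p thus depended on the scaling. On the scaled signal, CLP mice 4 and 8 were the lowest and the highest for miR-142-3p. Without CLP mouse 4 its log2 difference was 0.69, and without CLP mouse 8 it was 0.23, with limma adjusted p = 0.110 and 0.611.

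**Figure D2:**
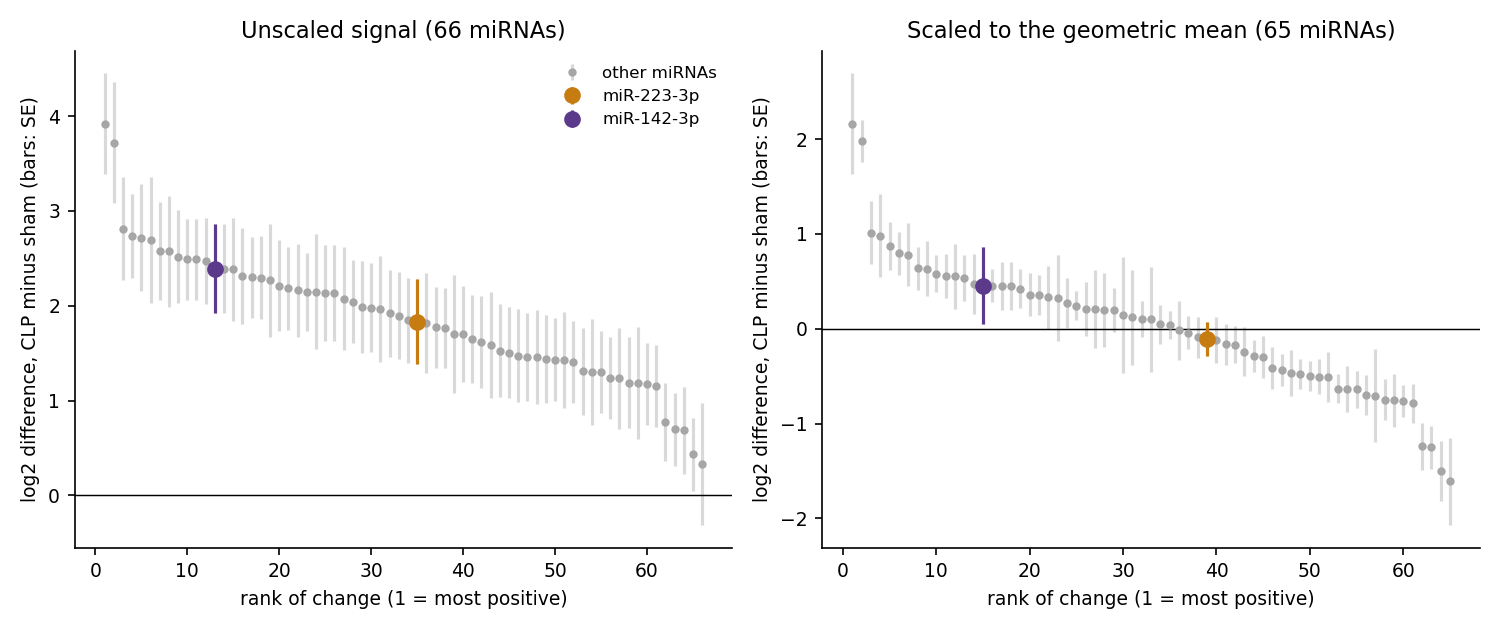
Log2 difference between CLP and sham mice (bars, SE) of each tested miRNA, ranked from the most positive, for the unscaled signal (66 miRNAs) and the scaled signal (65 miRNAs). miR-142-3p ranks 13 and 15 and miR-223-3p ranks 35 and 39, with miR-223-3p close to the middle of the panel both times.

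In the order of scaled changes miR-142-3p ranked 15 and miR-223-3p ranked 39 of 65. The miRNA next above miR-142-3p was miR-429, an epithelial miRNA of weak signal, at 0.47 (SE 0.31). Its mean scaled log2 signal was 2.09 in CLP mice and 1.62 in sham mice. Next below miR-142-3p was miR-181a-5p, a lymphocyte miRNA, at 0.45 (SE 0.17). miR-181a-5p had nearly the same change with a far smaller error. The neighbours of miR-223-3p were let-7b-5p at -0.09 and miR-210-3p, a miRNA raised in low oxygen, at -0.12. Each of these gaps to a neighbour was smaller than the SE of either miRNA.

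The sign of miR-223-3p depended on the scaling. It was at -0.06 with median scaling, 0.07 with quantile normalization, 0.11 with the 75th percentile and 0.11 with the authors' values. miR-142-3p was positive under each of these, at 0.50, 0.27, 0.67 and 0.67. Neither passed under any of them. The smallest limma adjusted p among these scalings was 0.189 for miR-142-3p and 0.674 for miR-223-3p. These scalings share the same 13 samples and are not separate checks.

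**Figure D3:**
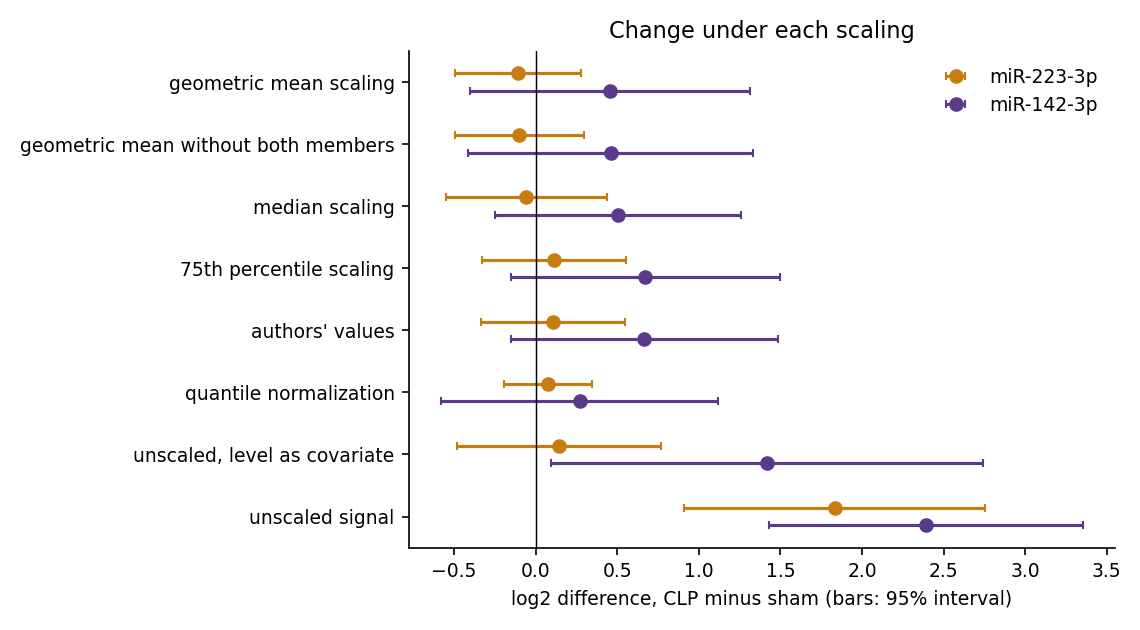
Log2 difference between CLP and sham mice of both miRNAs (points) with 95% intervals (bars) under 6 scalings, with the level of the mouse as a covariate, and without scaling. The intervals of both miRNAs include 0 under each of the 6 scalings, and that of miR-142-3p runs from 0.10 to 2.74 with the covariate; without scaling both lie above 0, at 2.39 for miR-142-3p and 1.83 for miR-223-3p.

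How each of the pair followed the level of the mouse, its geometric mean signal over the panel, was described by a slope. Whether the slopes of the pair differ was not tested. Within groups, log2 signal of miR-223-3p rose with a slope of 0.87 (SE 0.11) per log2 unit of level, near the median slope of 0.92 over 51 miRNAs with 5 or more raw units in every mouse. The slope of miR-142-3p was 0.50 (SE 0.29), the fourth lowest of the 51, next to those of miR-451a, miR-16-5p and let-7e-5p. With the level as a covariate of the unscaled signal, the group difference of miR-142-3p was 1.42 (SE 0.62, limma adjusted p = 0.154, unadjusted p = 0.0374) and that of miR-223-3p was 0.14 (SE 0.29, limma adjusted p = 0.775). In that fit 12.1% of 66 miRNAs passed in either direction.

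The third comparison took each miRNA as a share of the summed raw signal of its mouse, which needs no scaling factor. miR-223-3p made up 5.23% ± 0.630 (SD, n = 8) of the signal in CLP mice and 4.23% ± 1.11 (SD, n = 5) in sham mice. All 8 CLP mice lay above the sham mean, but only 3 lay above every sham mouse. Its share ran from 4.43% to 6.13% in CLP mice around a median of 5.02%, against 4.72%, 3.82%, 5.23%, 2.49% and 4.90% in sham mice 1 to 5. The difference of 1.001 percentage points (SE 0.543) had an exact two-sided permutation p = 0.0490, and 0.0897 after Benjamini-Hochberg adjustment over the 11 shares and ratios tested. Without sham mouse 4, which had the lowest share, the difference was 0.565 percentage points (adjusted exact permutation p = 0.263).

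miR-142-3p made up 0.198% ± 0.1005 (SD, n = 8) of the signal in CLP mice and 0.0970% ± 0.0284 (SD, n = 5) in sham mice. Its share exceeded all sham shares in 6 of 8 CLP mice and lay below all of them in CLP mouse 4. The CLP shares ran from 0.0600% to 0.400% around a median of 0.178%. The sham shares were 0.110%, 0.137%, 0.0714%, 0.0682% and 0.0988% in mice 1 to 5. The difference of 0.101 percentage points (SE 0.0377) had an exact two-sided permutation p = 0.0451, and 0.0897 after the same adjustment. Without CLP mouse 4 it passed, at 0.121 percentage points (adjusted exact permutation p = 0.0208). How much of the panel would pass the same test on its share is not given here, so this call does not set miR-142-3p apart.

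The red cell miRNAs fill much of the summed signal, and their share was lower in CLP mice while those of both miRNAs were higher. The 4 erythroid miRNAs on the panel (miR-451a, miR-16-5p, miR-486-5p and miR-92a-3p) together made up 21.6% to 32.6% of the signal in CLP mice and 32.2% to 50.2% in sham mice. With miR-16-5p and miR-451a left out of the sum, the share of miR-223-3p differed by 0.134 percentage points (adjusted exact permutation p = 0.838). The share of miR-142-3p then differed by 0.0990 percentage points (adjusted exact permutation p = 0.261).

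The fourth comparison set the miRNAs against each other. The ratio of raw signals within a mouse does not move with any factor per mouse, and only its differences between mice can be read, since the probes differ in brightness. miR-223-3p per miR-142-3p ran from 15.3 to 82.0 in CLP mice, with a median of 27.1. In sham mice 1 to 5 it was 43.0, 27.9, 73.3, 36.4 and 49.5. In 5 of 8 CLP mice the ratio lay below that of every sham mouse, and in CLP mouse 4 it lay above them all.

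The mean log2 ratio was 4.89 ± 0.77 (SD, n = 8) in CLP mice and 5.45 ± 0.52 (SD, n = 5) in sham mice. The difference of -0.56 (SE 0.36), a 1.47-fold lower ratio in CLP mice, did not pass an exact two-sided permutation test over all splits of the mice (p = 0.182, adjusted p = 0.250). A difference in the response of these miRNAs was therefore not shown. Without CLP mouse 4 the difference was -0.77 (adjusted exact permutation p = 0.0556), and without sham mouse 3 it was -0.37 (adjusted exact permutation p = 0.469).

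**Figure D4:**
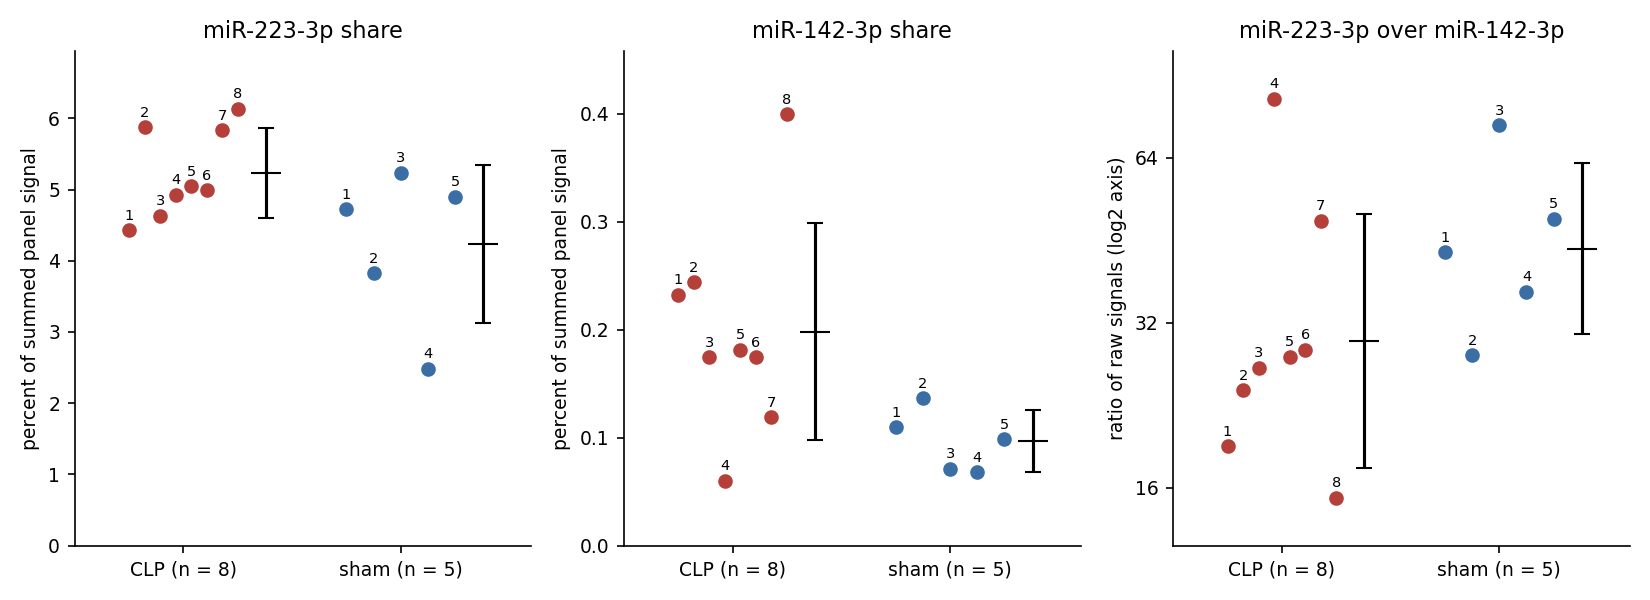
Share of summed panel signal (percent) of miR-223-3p and of miR-142-3p, and the ratio of their raw signals (log2 axis), in each mouse, CLP (n = 8) left of sham (n = 5); numbers name the mice and bars give mean ± 1 SD (of log2 values for the ratio). CLP mouse 4 has the lowest miR-142-3p share, 0.0600%, and the highest ratio, 82.0, while CLP mouse 8 has the highest share, 0.400%, and the lowest ratio, 15.3.

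Each miRNA was then set against 4 partner miRNAs, again as raw ratios. In the order of scaled changes these partners ranked 64 (miR-451a), 13 (miR-150-5p), 6 (miR-126-3p) and 4 (miR-122-5p) of 65. A ratio shifts with the change of the partner itself, and the adjustment of p does not cover the choice of partner. The sources overlap, since platelets also hold miR-126-3p and lymphocytes hold both miR-150-5p and miR-142-3p. Both were higher in CLP mice relative to the erythroid miR-451a. The log2 ratio of miR-223-3p to miR-451a was -0.46 ± 0.32 (SD, n = 8) in CLP mice and -1.86 ± 0.92 (SD, n = 5) in sham mice, a 2.64-fold difference. That of miR-142-3p to miR-451a was -5.35 ± 0.52 (SD, n = 8) in CLP mice and -7.31 ± 0.66 (SD, n = 5) in sham mice, a 3.88-fold difference. For both, all 8 CLP mice lay above every sham mouse, and the exact two-sided permutation p = 0.000777 is the smallest this design can give (adjusted p = 0.00427). The same full separation held for 27.7% of the 65 miRNAs set against miR-451a, and 78.5% of them were higher with an unadjusted exact permutation p under 0.05. miR-451a itself fell by 1.50 after scaling (SE 0.32, limma adjusted p = 0.00440), while miR-223-3p was at -0.11 and miR-142-3p at 0.45. A higher ratio to miR-451a therefore does not set either miRNA apart.

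Relative to miR-126-3p, a miRNA of endothelium and platelets, miR-223-3p was 1.87-fold lower in CLP mice. The log2 ratio was 1.24 ± 0.44 (SD, n = 8) in CLP mice and 2.14 ± 0.28 (SD, n = 5) in sham mice (exact permutation p = 0.00389, adjusted p = 0.0142). In 7 of 8 CLP mice the ratio was below that of every sham mouse, and 55.4% of the 65 miRNAs set against miR-126-3p were lower with an unadjusted exact permutation p under 0.05. Relative to miR-150-5p, a miRNA of mature lymphocytes, miR-223-3p was 1.56-fold lower in CLP mice. That log2 ratio was 0.19 ± 0.38 (SD, n = 8) in CLP mice and 0.83 ± 0.25 (SD, n = 5) in sham mice (exact permutation p = 0.00699, adjusted p = 0.0192). Again 7 of 8 CLP mice lay below every sham mouse, and 38.5% of the 65 miRNAs set against miR-150-5p were lower with an unadjusted exact permutation p under 0.05. The call for miR-150-5p was lost without sham mouse 1 (adjusted exact permutation p = 0.0667) or sham mouse 3 (adjusted exact permutation p = 0.0556), and without sham mice 1 and 4 together (adjusted exact permutation p = 0.0833). In CLP mice the raw ratio of miR-223-3p to miR-150-5p ran from 0.732 to 1.59, against 1.50 to 2.21 in sham mice. After scaling, miR-126-3p itself rose by 0.80 (SE 0.23, limma adjusted p = 0.0192). miR-150-5p was at 0.53 (SE 0.24, limma adjusted p = 0.0969) and miR-223-3p at -0.11. The lower ratios to these partners therefore do not set miR-223-3p apart.

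The same ratios of miR-142-3p did not pass. Its log2 ratio to miR-150-5p differed by -0.08 (SE 0.31, exact permutation p = 0.834, also after adjustment) and that to miR-126-3p by -0.34 (SE 0.31, exact permutation p = 0.396, adjusted p = 0.484). With 1 mouse left out at a time the difference to miR-150-5p ran from -0.21 to 0.12, and that to miR-126-3p from -0.47, without sham mouse 3, to -0.12, without CLP mouse 4. Against miR-122-5p, the most abundant miRNA of liver cells, miR-223-3p differed by -1.19 (SE 0.63, exact permutation p = 0.0788, adjusted p = 0.124) and miR-142-3p by -0.57 (SE 0.67, exact permutation p = 0.497, adjusted p = 0.547), with 4 sham values because 1 cell of the table was empty. The difference of miR-142-3p to miR-122-5p was -0.98 without CLP mouse 8 and -0.25 without sham mouse 1. The ratio of miR-223-3p to miR-122-5p passed without CLP mouse 8 (-1.47, adjusted exact permutation p = 0.0467). How much of the panel was lower against miR-122-5p is not given here. Whether the ratios of miR-142-3p differ from those of miR-223-3p is the same question as the direct ratio of both, which did not pass.

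Within the CLP group no relation between these miRNAs was shown. Over the 8 CLP mice the scaled log2 signals had a Pearson r of 0.65 (exact permutation p = 0.126) and a Spearman rho of 0.43 (exact permutation p = 0.299). Without CLP mice 4 and 8, the farthest from the median of miR-142-3p, r was -0.34 (exact permutation p = 0.504, n = 6). On the unscaled signal r over all 8 was -0.01 (exact permutation p = 0.974). Without CLP mice 4 and 7, the farthest from the median on that scale, r was 0.44 (exact permutation p = 0.397, n = 6). The sign of r thus changed with the mice left out and with the scaling. No such relation was computed over the 5 sham mice.

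**Figure D5:**
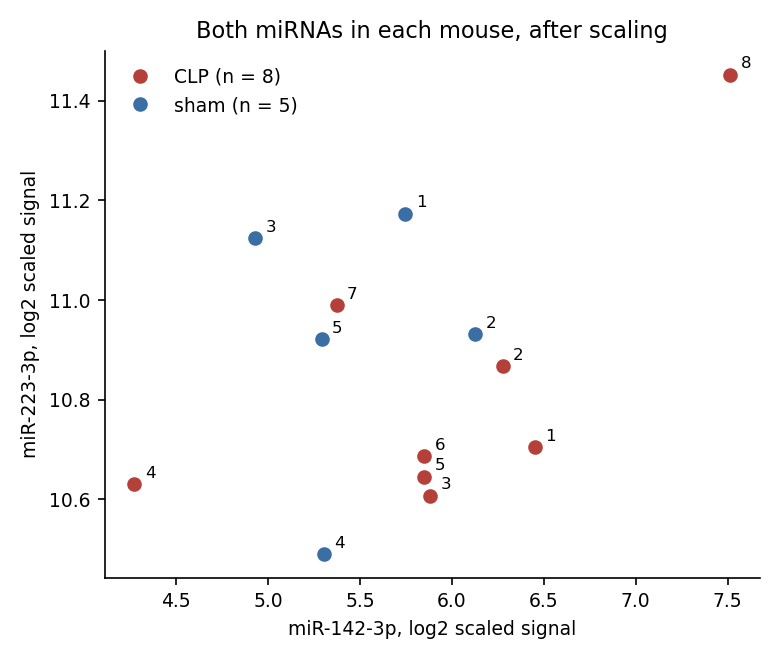
Scaled log2 signal of miR-223-3p against that of miR-142-3p in each CLP (n = 8) and sham (n = 5) mouse, with mouse numbers. CLP mouse 8 is highest for both miRNAs and CLP mouse 4 is lowest for miR-142-3p; without both, r in CLP mice is -0.34.

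The miRNAs whose scaled signal ran most like each of them were found over all 13 mice after the group means were removed. For miR-223-3p they were miR-150-5p (r = 0.59), the smooth muscle miRNA miR-145-5p (0.54), miR-142-3p itself (0.51), miR-181b-5p (0.47) and miR-23a-3p (0.46). For miR-142-3p they were let-7g-5p (0.74), miR-21-5p (0.70), miR-451a (0.69), miR-20b-5p (0.67) and miR-150-5p (0.65). miR-150-5p was on both lists. These correlations describe the 13 samples, which share a scaling factor each, and no test was made of them. The mature sequences of the closest 3 of miR-142-3p are shown for reference, with the seed in capitals. None of the 51 other miRNAs matched to a sequence shares its seed. Whether likeness in signal goes with likeness in seed can therefore not be read from them.
let-7g-5p: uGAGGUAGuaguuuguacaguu
miR-21-5p: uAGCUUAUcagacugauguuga
miR-451a: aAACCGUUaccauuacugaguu
Their RefSeq positions on GRCm38.p6 are chr9:106178846-106178867 on the plus strand, chr11:86584120-86584141 on the minus strand and chr11:78073186-78073207 on the plus strand.

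Of a myeloid list of 7 miRNAs, 5 were on the panel, among them miR-223-3p and miR-142-3p. Of the other 3, after scaling, 1 rose and 1 fell, with a median of 0.27 against 0.10 over the panel, where 10.8% rose and 20% fell. The riser was miR-146a-5p, which damps signalling downstream of Toll-like receptors (log2 0.87, SE 0.25, limma adjusted p = 0.0192). The faller was miR-21-5p, a widely expressed miRNA raised in inflammation (log2 -0.75, SE 0.22, limma adjusted p = 0.0192), which on the unscaled signal rose by 1.19. miR-155-5p, induced in activated macrophages, was at 0.27 (SE 0.26, limma adjusted p = 0.454). Unscaled, all 3 rose, against 90.9% of the panel, with a median of 2.21 against 1.87.

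Of a platelet list of 7, 4 were on the panel, miR-223-3p among them. Of the other 3, after scaling, 1 rose and 2 fell, with a median of -0.48. The riser was miR-126-3p (log2 0.80, SE 0.23, limma adjusted p = 0.0192), and miR-21-5p and miR-24-3p fell. miR-24-3p, which shares a cluster with miR-23a-3p, was at -0.48 (SE 0.16, limma adjusted p = 0.0343), and at 1.46 unscaled. Of the lymphoid list all 6 were on the panel, miR-142-3p among them. Of the other 5, after scaling, 1 rose (miR-146a-5p, which the myeloid list also holds) and none fell, with a median of 0.45. The lists share members, and with 3 to 5 miRNAs each their counts are too small to set against the panel. The part of platelets, leukocytes and red cells in the signal of miR-223-3p and miR-142-3p was not tested.

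Lists of miRNAs of other sources were also summed, though the endothelial list shares miR-126-3p with the platelet list. The liver and gut list (3 on the panel) made up 0.689% to 3.39% of the signal in CLP mice and 0.267% to 1.97% in sham mice. The lowest sham value is that of sham mouse 4, whose miR-122-5p cell was empty, so its sum lacks that miRNA. The endothelial list (2 on the panel) made up 2.10% to 3.78% in CLP mice and 1.19% to 1.62% in sham mice. The epithelial list (5 on the panel) made up 0.235% to 1.37% in CLP mice and 0.364% to 1.080% in sham mice, with 1 value at 0. Signals of these lists were thus present in both groups beside the haematopoietic pair.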

How the data were processed

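Signals came from FirePlex hydrogel particles, to which miRNAs were hybridized before adapter ligation and RT-PCR with a biotinylated primer, per the labels' protocols. The authors deposited raw fluorescence intensity, unscaled between samples, and a second table of intensity, in which each sample's raw signals are multiplied by 1 constant (0.450 to 4.31). The sources used here do not give how this constant was set, nor the scanner and background steps. In the second table the columns of CLP 6 and CLP 7 match the raw columns CLP 7 and CLP 6; single-mouse values follow the raw table, and group tests are unaffected. The number of samples limits the precision.

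The scaling factor of a sample was its geometric mean over 60 miRNAs, those positive in all samples. Scaled signals were floored at the 5th percentile of positive values (2.38 units scaled, 2.10 units raw) and put on the log2 scale. Tests covered miRNAs that exceeded this floor in 5 or more samples and used limma 3.58.1 in R 4.3.3 (two-sided, Benjamini-Hochberg over 66 unscaled or 65 scaled miRNAs, threshold 0.05). Shares and ratios used exact permutation over all splits (Python 3.11.15, scipy 1.17.1), and fits were tested on simulated data.

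Members and lists were chosen with earlier results of these data known. Named miRNAs were the pair, the 4 ratio partners, the myeloid and platelet lists, the 5 most alike to each and their neighbours in rank. The labels number both groups from 1, but same-numbered samples did not deviate together (correlations -0.34 to 0.29 over 5 pairs). Samples were taken as 1 mouse each, and nothing states separate housing or assay. The p-values set group differences against the spread between these samples. A cage or assay run shared by a group could not be told apart from the group.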

Additional observations from a re-analysis of the deposited data

Results flagged for a closer look

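Among 30 sets of group values, 2 held a mouse set apart from the rest of its group by Dixon's criterion, and chance flags about 1 in 20 such sets. The first was the scaled log2 signal of miR-223-3p in CLP mouse 8, at 11.45, above every other mouse. The second was the log2 ratio of miR-142-3p to miR-126-3p in CLP mouse 4, at -5.22, below every other CLP mouse.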

How the results depend on the processing

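Of 143 alternative values of the main results, 136 kept their direction and their side of the threshold. With the level as a covariate both unscaled rises lost their call (0.14 for miR-223-3p and 1.42 for miR-142-3p). The scaled change of miR-223-3p turned positive with quantile normalization (0.075), the 75th percentile (0.11) and the authors' values (0.11), and the relation within CLP mice turned to -0.015 unscaled.

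Leaving out 1 mouse at a time gave unscaled changes of 1.50 to 2.18 for miR-223-3p and 2.13 to 2.69 for miR-142-3p, and scaled changes of -0.21 to -0.04 and 0.23 to 0.69. The share differences were 0.565 to 1.25 points for miR-223-3p and 0.0725 to 0.121 points for miR-142-3p, and the log2 ratio of both -0.77 to -0.37. The ratio of miR-142-3p to miR-150-5p turned positive without CLP 4, sham 1 or sham 2 (-0.21 to 0.12 over these fits) and without sham 1 and 4 together (0.038), an alternative chosen after seeing the data.

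Sham and CLP numbers are not a stated pairing. With a replicate block over 10 samples the scaled changes were -0.24 and 0.27, the unscaled 1.98 and 2.48, and the scaled calls over the panel 2 higher and 4 lower, against 7 and 10 in the same samples without it and 7 and 13 in all 13. The paired ratio was -0.50 (exact sign-flip p = 0.312, smallest possible 0.0625). The scaled split of calls was 13 higher and 6 lower with 75th percentile scaling as with the authors' values, 5 and 7 with quantile normalization and 4 and 6 with the median. With 1 mouse left out the calls ran from 11, without sham 2, to 23, against 20 in all 13.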
